A study of Mus musculus with 24 samples.

Results

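The vacuolar proton pump (V-ATPase) was followed through 10 of its mouse genes: the membrane subunits Atp6v0c, Atp6v0b, Atp6v0d1, Atp6v0d2 and Atp6v0e, the cytosolic subunits Atp6v1a, Atp6v1b2, Atp6v1e1 and Atp6v1h, and the accessory subunit Atp6ap1. The genes were taken by name, and each gene's reads were summed over its annotated transcripts, which gave 10 genes of 35519 in the files, 9 of them with enough reads to be tested among 9803 tested genes. A further 16 pump subunit genes, including the alternative isoforms, are described beside them. RNA was measured in 24 libraries of 1000 microglia each, sorted from whole brain of C57BL/6 mice as Ly6C-, CD11b+ and Fcrls+ cells, lysed, and made into Smart-Seq2 libraries, a full-length method without molecular identifiers or strand. The labels set 8 groups: phagocytosis and control libraries of female NL4-/-, female WT, male NL4-/- and male WT mice, where NL4-/- marks loss of neuroligin-4, a synaptic adhesion protein. Each phagocytosis group had 4 libraries and each control group had 2. The labels name neither what was taken up in the phagocytosis libraries nor the ages of the mice or how many mice gave the cells of a library, so p-values measure the spread between libraries.

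The V-ATPase is a rotary machine: a cytosolic sector hydrolyses ATP and turns a ring of proteolipid subunits in the membrane sector, which carries protons into the lumen. In microglia, as in other macrophages, it acidifies endosomes, phagosomes and lysosomes, and most lysosomal hydrolases work only in that acid. Many of its genes are known targets of the MiT/TFE transcription factors, which bind the motif CACGTG and its longer form TCACGTGA, the core of the CLEAR element.

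That motif was looked up in the promoters because it is the best known shared control sequence of these genes. RefSeq promoter windows, from 250 bases before to 50 bases after a transcription start (GRCm38.p6), were at hand for 7 of the 10 genes. CACGTG lay in the windows of 4 of those 7 genes and TCACGTGA, which contains it, in 3; both motifs read the same on either strand. Of all 27025 genes with windows, 8.09% held CACGTG and 1.12% held TCACGTGA; over the 32851 windows the shares were 7.15% and 0.974%. The stretches around the matches follow, each 60 bases long and written 5′ to 3′ on the gene's strand, with the motif in capitals.
Atp6v0b (chr4:117887326-117887385, minus strand): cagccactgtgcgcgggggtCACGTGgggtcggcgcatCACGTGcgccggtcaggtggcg
Atp6v0d1 (chr8:105566045-105566104, minus strand): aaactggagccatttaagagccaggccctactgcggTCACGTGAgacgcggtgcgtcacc
Atp6v0e (chr17:26676356-26676415, plus strand): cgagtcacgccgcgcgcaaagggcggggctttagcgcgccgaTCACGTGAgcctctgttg
Atp6v1a (chr16:44139352-44139411, minus strand): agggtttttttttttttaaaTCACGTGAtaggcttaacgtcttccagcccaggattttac
Atp6v0b carried CACGTG at 2 places, each with the T before it but without the A after it that the longer form needs. The windows of Atp6v0c, Atp6v1e1 and Atp6ap1 held neither form, and neither did those of the 12 other pump subunit genes that matched. A match is a description of letters, not of a bound site. The genes with a match include 2 whose RNA was higher in phagocytosis libraries (Atp6v0e, Atp6v1a) and 2 that did not pass the test (Atp6v0b, Atp6v0d1).

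Total reads ran from 421107 to 1013797 per library, so low genes were measured coarsely. Transcripts built of satellite repeat took 1.52 to 16.3% of the reads of phagocytosis libraries and 4.05 to 23.2% of those of control libraries, and 3 control libraries (female NL4-/- 1, male NL4-/- 1 and male WT 2) were above 20%. The files held 0 transcripts of Nlgn4l, so the knockout could not be checked. The 14 microglia markers summed to 31344 to 60222 CPM (reads scaled to a fixed library size, here 1e+06 of all reads) in phagocytosis libraries and to 42832 to 58812 in control libraries, with 3 of 14 higher on average in phagocytosis libraries; edgeR called 1 of the 14 higher and 4 lower. The 14 markers of border-associated macrophages, a neighbouring macrophage type, summed to 1442 to 2478 CPM in phagocytosis libraries and to 885 to 1736 in control libraries, all 14 higher on average, and edgeR called 7 of the 9 tested higher. Over all tested genes it called 8.39% higher and 5.2% lower. Most of that sum was Stab1, with a mean of 1461 of 1801 CPM in phagocytosis and 993 of 1110 CPM in control libraries. Neuron markers summed to 50.9 to 146 CPM in phagocytosis libraries and 23.97 to 57.6 in control libraries (14 of 15 higher), and monocyte markers to 35.4 to 229 in phagocytosis and 29.9 to 84.1 in control libraries (10 of 10 higher). Oligodendrocyte markers summed to 168 to 370 CPM in phagocytosis and 123 to 190 in control libraries (7 of 11 higher), astrocyte markers to 73.0 to 145 in phagocytosis and 58.5 to 140 in control libraries (9 of 10 higher), and endothelial markers to 17.6 to 68.4 in phagocytosis and 18.4 to 35.4 in control libraries (4 of 9 higher, Cldn5 at 0 in all 24 libraries). Uchl1 and Eno2 (neuron), Plac8 (monocyte), Mbp (oligodendrocyte) and Gfap and Aldoc (astrocyte) were called higher by edgeR. Slc1a3 (astrocyte), with a mean of 60.7 CPM in phagocytosis and 89.2 in control libraries, was called lower. The other tested markers of these lists were not called. The part of any of these cell types, or of the satellite reads, in the results on the pump was not tested. In such bulk libraries, more or fewer cells of a type and more or less RNA per cell cannot be told apart.

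The first comparison asked whether RNA of the pump subunits differed between the phagocytosis and control libraries, averaged over both sexes and genotypes. Atp6v0c, Atp6v1a, Atp6v1b2 and Atp6v0e were higher in phagocytosis libraries, 4 of the 9 tested genes, by 1.27-fold to 1.54-fold, and 0 of the 9 were lower. They span the machine: the proteolipid ring (Atp6v0c), the catalytic and the nucleotide-binding subunits of the ATPase head (Atp6v1a, Atp6v1b2) and a small membrane subunit (Atp6v0e). The other 5, including the ring subunit Atp6v0b, the coupling subunit Atp6v0d1 and the accessory Atp6ap1, did not pass the test. Over all 9803 tested genes, 13.6% were past an adjusted p of 0.05 in this comparison, 8.39% as higher and 5.2% as lower (edgeR quasi-likelihood F test, Benjamini-Hochberg adjustment). The median log2 fold change was 0.26 over the 9 pump genes and -0.01 over all tested genes. These 9 genes were chosen with earlier results of these data known. Of the other tested subunits, described below, edgeR called none higher and Atp6v0a2 lower. With scaling to the library total alone in place of TMM, 981 genes were higher and 348 lower, against 822 and 510 with TMM, and 4 of the pump genes were higher under either scaling. Under all the alternatives given below, only Atp6v0c kept its call throughout.

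**Figure D1:**
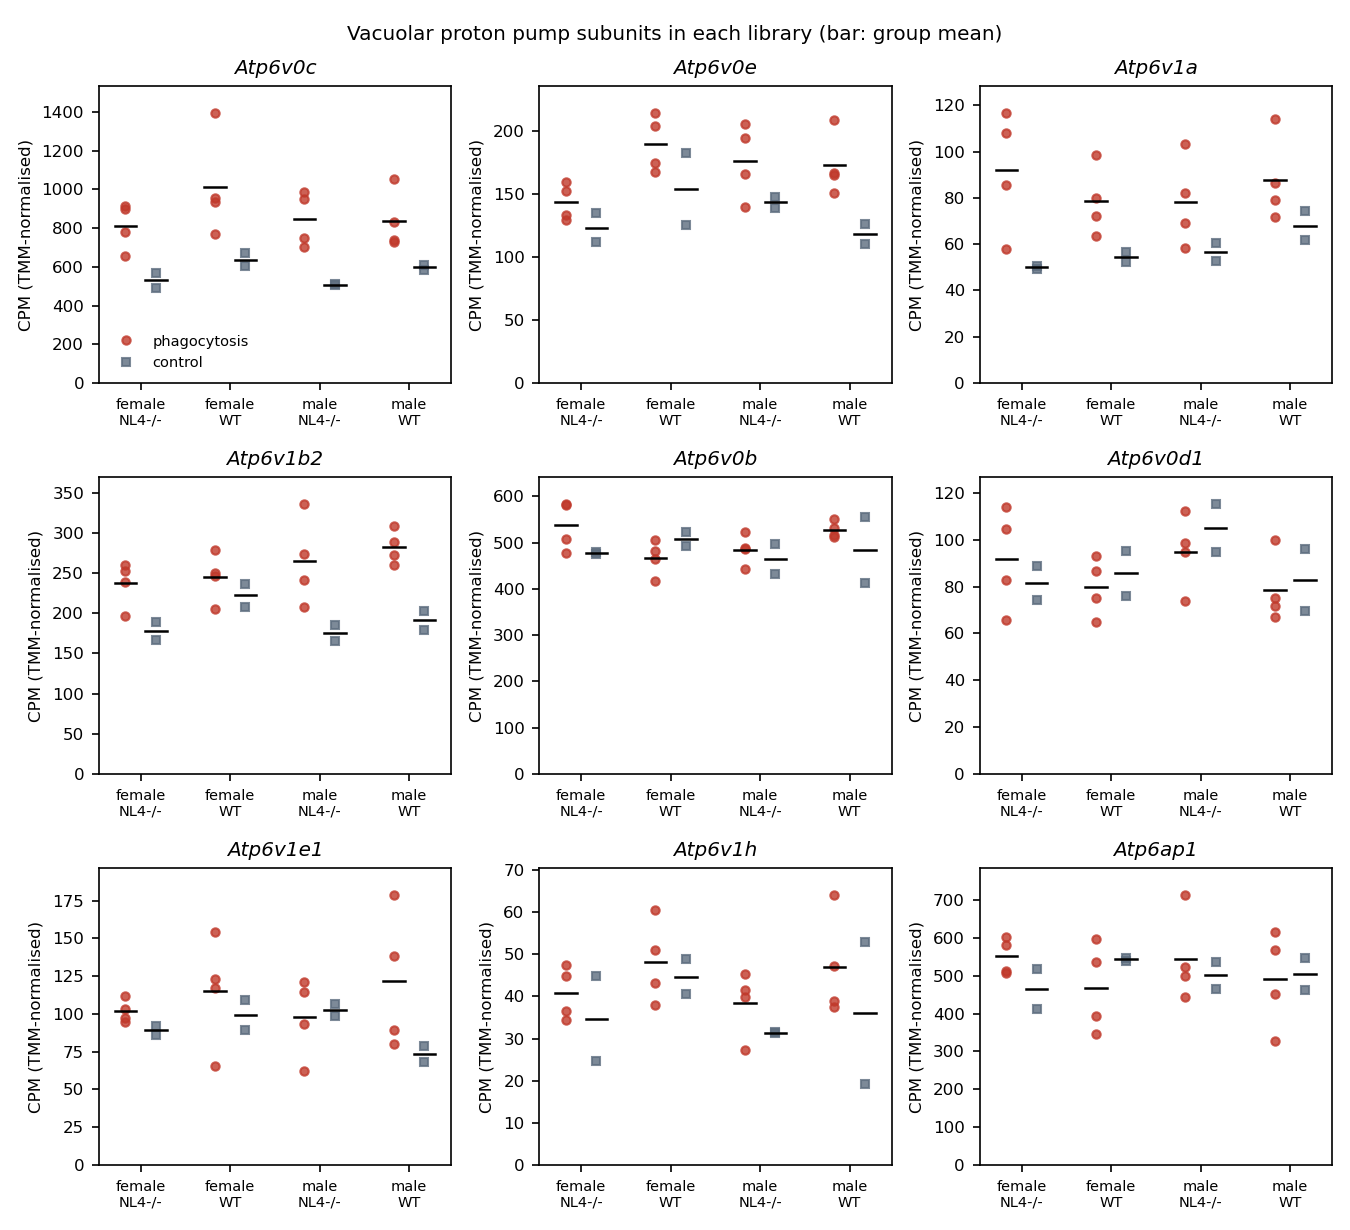
TMM-normalised CPM (y axes, from 0) of the 9 tested pump genes in each of the 24 libraries, by sex and genotype, with phagocytosis libraries as red circles left of control libraries as grey squares and a bar at each group mean. Atp6v0c was above both control libraries in every phagocytosis library of each sex and genotype, whereas Atp6v0b and Atp6ap1 mixed.

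Atp6v0c (chromosome 17, 24163866 to 24169702, minus strand, GRCm38) encodes the proteolipid of the rotating ring, which binds the transported protons. It had 654, 864 and 1394 CPM as lowest, median and highest of the 16 phagocytosis libraries, against 492, 578 and 672 CPM in the 8 control libraries. Of the 16 phagocytosis libraries, 15 were above every control library, and the ranges overlapped by the remaining one. The log2 fold change was 0.62 ± 0.115 (SE, n = 16 against 8; edgeR adjusted p = 0.000508), a 1.54-fold difference. Leaving out each library in turn gave 0.58 to 0.68, with the call kept in all 24 fits. Without the 3 control libraries above 20% satellite reads, which leaves 3 control groups with 1 library whose spread is assumed to be that of the other groups, it was 0.62 (adjusted p = 0.0198), and it was the only one of the 9 genes called there, against a background of 410 genes called in place of 1332. The 2 annotated pseudogenes that carry its name held 2.12 and 0 reads over all libraries. Pseudogenes under other names were not searched for, and no sequences were compared.

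Atp6v1a (chromosome 16, 44085402 to 44139705, minus strand) encodes the catalytic A subunit of the ATPase head. It had 58.0, 81.2 and 117 CPM as lowest, median and highest in phagocytosis libraries, against 49.4, 54.6 and 74.2 CPM in control libraries. The ranges overlapped, with 10 of 16 phagocytosis libraries above every control library. The log2 fold change was 0.55 ± 0.148 (SE; edgeR adjusted p = 0.0118). Without the 3 satellite-rich controls it was 0.62 with an adjusted p of 0.0706, and with the phagocytosis libraries numbered 3 and 4 alone it was 0.40 with an adjusted p of 0.120 (edgeR).

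Atp6v1b2 (chromosome 8, 69088646 to 69113711, plus strand) encodes the B subunit, which alternates with the A subunit in the head. It had 197, 256 and 336 CPM as lowest, median and highest in phagocytosis libraries, against 165, 187 and 237 CPM in control libraries. Of the phagocytosis libraries, 13 of 16 were above every control library. The log2 fold change was 0.43 ± 0.105 (SE; edgeR adjusted p = 0.00626). The call ended without the 3 satellite-rich controls (0.42, adjusted p = 0.0843) and with counts scaled by transcript length (0.30, adjusted p = 0.111; both edgeR).

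Atp6v0e (chromosome 17, 26663231 to 26699647, plus strand) encodes the small subunit e of the membrane sector. It had 129, 166 and 214 CPM as lowest, median and highest in phagocytosis libraries, against 111, 130 and 182 CPM in control libraries. Only 5 of 16 phagocytosis libraries were above every control library. The log2 fold change was 0.34 ± 0.111 (SE; edgeR adjusted p = 0.0371), the closest of the 4 to the threshold. The call ended when any of 7 libraries was left out: control libraries female NL4-/- 2, female WT 2, male NL4-/- 1, male NL4-/- 2 and male WT 2, and phagocytosis libraries female WT 3 and male WT 3, with log2 fold changes of 0.30 to 0.43 over all 24 such fits and adjusted p up to 0.133. It also ended without the 3 satellite-rich controls (0.38, adjusted p = 0.156).

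The remaining membrane subunits and the accessory subunit lay near 0. Atp6v0b (chromosome 4, 117884326 to 117887333, minus strand), a ring proteolipid related to Atp6v0c, had 416, 506 and 583 CPM as lowest, median and highest in phagocytosis libraries, against 412, 487 and 555 CPM in control libraries, with a log2 fold change of 0.06 ± 0.0898 (SE; edgeR adjusted p = 0.731). Atp6v0d1 (chromosome 8, 105524465 to 105566047, minus strand), which couples the ring to the central stalk, had 64.9, 84.8 and 114 CPM in phagocytosis libraries, against 69.6, 91.7 and 115 CPM in control libraries (-0.04 ± 0.130, SE; edgeR adjusted p = 0.901). Its sign turned to 0.02 with scaling to the library total. Atp6ap1 (chromosome X, 74297097 to 74304721, plus strand), a glycoprotein needed to assemble the membrane sector, had 327, 518 and 713 CPM in phagocytosis libraries, against 413, 526.4 and 547 CPM in control libraries (0.03 ± 0.122, SE; edgeR adjusted p = 0.930). For Atp6v0b and Atp6v0d1 the groups overlapped over most of their range. Atp6ap1 spread more widely in phagocytosis libraries, 6 of which were above and 3 below every control library.

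Among the cytosolic subunits, Atp6v1e1 (chromosome 6, 120794305 to 120822793, minus strand), part of the peripheral stalks that hold the head still, had 62.1, 108 and 179 CPM as lowest, median and highest in phagocytosis libraries, against 68.1, 90.9 and 109 CPM in control libraries. Its log2 fold change was 0.26 ± 0.157 (SE; edgeR adjusted p = 0.299), and 8 phagocytosis libraries were above and 2 below every control library. Atp6v1h (chromosome 1, 5070018 to 5162529, plus strand), the regulatory subunit at the joint of the sectors, had 27.2, 42.4 and 64.1 CPM in phagocytosis libraries, against 19.2, 36.0 and 53.0 CPM in control libraries (0.25 ± 0.182, SE; edgeR adjusted p = 0.393). Its estimate ran from 0.13 without male WT control library 1 to 0.51 without male WT control library 2. Atp6v1b2, Atp6v1e1 and Atp6v1h overlap a gene on the opposite strand (Slc18a1, Slc25a18 and Rgs20), which strandless reads cannot separate; those neighbours held 21.0, 27 and 14.0 reads over all libraries.

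Atp6v0d2 (chromosome 4, 19876841 to 19922605, minus strand), the d isoform known from mouse osteoclasts, was too low to test. It had 4.47 reads in all: 1.32 in male NL4-/- phagocytosis library 3, 1.02 in male WT phagocytosis library 1 and 2.14 in female NL4-/- control library 2, with 0 in the other 21 libraries. Its share of the transcripts of the d isoforms, in TPM, averaged 0.181% ± 0.505 (SD, n = 16) in phagocytosis libraries and 0.414% ± 1.17 (SD, n = 8) in control libraries, the rest being Atp6v0d1. A difference between the states was not detectable at this depth.

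The other 16 pump subunit genes were read for the same comparison, and 10 of them had enough reads to be tested. Of the 10, edgeR called 0 higher and 1 lower, beside its background of 8.39% and 5.2%. An unadjusted p under 0.05 in either direction (edgeR) was found for 3, where 27% of all tested genes had one. DESeq2 called 1 higher, and its share over all genes is not given here. Atp6v0a2 (chromosome 5, 124628576 to 124724455, plus strand), an isoform of the a subunit that forms the proton path and sorts pumps to compartments, had 110, 196 and 274 CPM as lowest, median and highest in phagocytosis libraries, against 223, 281 and 346 CPM in control libraries. It fell in phagocytosis libraries by 0.50 on the log2 scale (SE 0.128; edgeR adjusted p = 0.00881), and 12 of 16 phagocytosis libraries were below every control library. The call ended without female WT control library 2 or male NL4-/- control library 1 (highest adjusted p = 0.0526) and without the 3 satellite-rich controls (adjusted p = 0.0697; all edgeR). The other a isoforms lay near 0: Tcirg1, the a3 isoform, at 0.00 ± 0.108 and Atp6v0a1 at -0.07 ± 0.103 (log2 fold change ± SE).

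The other cytosolic subunits had positive estimates that did not pass the edgeR test. Atp6v1g1, of the peripheral stalks, came nearest at 0.35 ± 0.124 (log2 fold change ± SE; adjusted p = 0.0609), with 117, 145 and 228 CPM as lowest, median and highest in phagocytosis libraries, against 92.1, 119 and 155 CPM in control libraries. Atp6v1d and Atp6v1f, of the central stalk, were at 0.43 ± 0.192 and 0.22 ± 0.112, and Atp6v1c1, which joins the stalks, at 0.23 ± 0.128. The low membrane isoform Atp6v0e2 was at 0.49 ± 0.498, and left-out libraries moved it from 0.27 (without male NL4-/- control library 1) to 1.61 (without male NL4-/- control library 2). The accessory subunit Atp6ap2 and the membrane subunit Rnasek were at 0.00 ± 0.1254 and -0.02 ± 0.126.

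**Figure D2:**
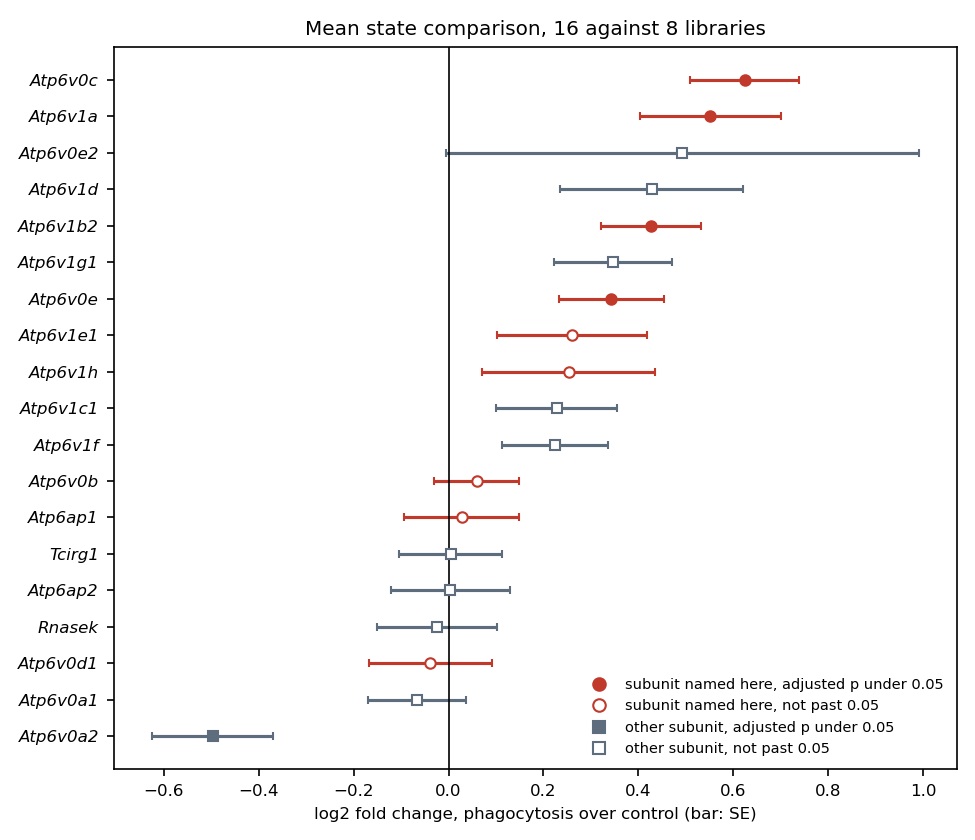
Log2 fold change of phagocytosis over control libraries (x axis; points with SE bars; averaged over sexes and genotypes) for the 19 tested pump subunits, with the 9 tested genes followed here as red circles and other subunits as grey squares, filled where the edgeR adjusted p was under 0.05. Filled points are Atp6v0c, Atp6v1a, Atp6v1b2 and Atp6v0e on the right and Atp6v0a2 at -0.50 on the left.

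Levels were set against each other as TPM, the authors' transcript abundance per length. In phagocytosis libraries Atp6v0c averaged 775 ± 194 TPM and Atp6v0b 564 ± 108 TPM (SD, n = 16), followed by Atp6ap1 at 230 ± 76.3, Atp6v0e at 217 ± 47.4, Atp6v1b2 at 96.3 ± 30.2, Atp6v1e1 at 81.7 ± 25.7, Atp6v0d1 at 52.1 ± 15.3, Atp6v1a at 31.9 ± 9.87 and Atp6v1h at 31.4 ± 9.04. In control libraries Atp6v0b was highest at 458 ± 179 TPM and Atp6v0c followed at 415 ± 156 TPM (SD, n = 8). The lowest in control libraries were Atp6v1h at 20.02 ± 8.59 and Atp6v1a at 13.1 ± 5.01 TPM. Neighbours in these orders overlapped in range, so that only wider steps, such as the ring proteolipids above the head subunits, exceeded the spread. TPM share a fixed sum with the satellite transcripts, so no TPM level was compared between the states.

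**Figure D3:**
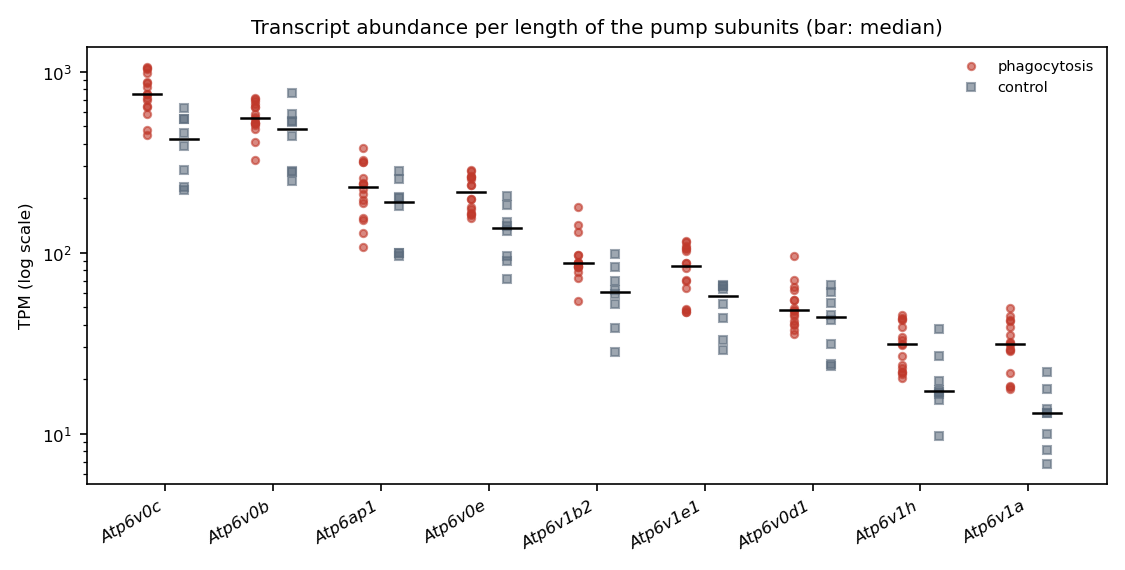
TPM (y axis, log scale) of the 9 tested pump genes in each library, ordered by mean over all 24, with phagocytosis libraries as red circles left of control libraries as grey squares and a bar at each median. The ring genes Atp6v0c and Atp6v0b lie highest and Atp6v1h and Atp6v1a lowest.

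A ratio of TPM of a pair of genes within a library does not depend on that shared sum. The ratio of Atp6v0c to Atp6v0b averaged 1.40 ± 0.371 in phagocytosis libraries (SD, n = 16; lowest 0.876, highest 2.56) and 0.917 ± 0.144 in control libraries (SD, n = 8; lowest 0.741, highest 1.15). The ratio of Atp6v1a to its partner Atp6v1b2 averaged 0.344 ± 0.107 in phagocytosis libraries and 0.215 ± 0.0311 in control libraries. The ranges overlapped for both ratios, which are given as descriptions. TPM also depend on the transcript to which reads are assigned, and for Atp6v1a that varied widely between libraries. In CPM, which do not use transcript length, the phagocytosis mean over the control mean was 1.47 for Atp6v1a and 1.34 for Atp6v1b2. A shift between these 2 subunits therefore cannot be read from their TPM ratio. Where isoforms exist, the ubiquitous one held nearly all TPM in both states: Atp6v1b2 averaged 99.8% of the B isoforms in phagocytosis and 100% in control libraries, Atp6v1e1 100% of the E isoforms in phagocytosis and 99.4% in control libraries, and Atp6v0e 94.8% of the e isoforms in phagocytosis and 94.6% in control libraries. The a subunit was the exception, shared in phagocytosis libraries as 75.1% ± 6.25 Tcirg1, 16.6% ± 5.82 Atp6v0a1 and 8.26% ± 1.99 Atp6v0a2 (SD, n = 16), and in control libraries as 73.2% ± 3.46 Tcirg1, 15.96% ± 2.24 Atp6v0a1 and 10.8% ± 1.94 Atp6v0a2 (SD, n = 8).

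In 7 of the 9 tested genes most reads came from 1 coding transcript. The main transcript held 70.0% of the reads of Atp6v0c over all libraries, 70.4% of Atp6v0b, 96.0% of Atp6v0d1, 96.4% of Atp6v0e, 94.7% of Atp6v1b2, 92.6% of Atp6v1e1 and 94.2% of Atp6ap1. In Atp6v0c a shorter coding transcript (796 bases against 1183) held 26.5%; the main one averaged 70.6% ± 10.5 (SD, n = 16) in phagocytosis libraries and 68.1% ± 6.71 (SD, n = 8) in control libraries. In Atp6v0b a transcript annotated with a retained intron held 26.5% of the reads, at 25.8% ± 8.05 in phagocytosis libraries and 29.6% ± 10.5 in control libraries. Atp6v1a and Atp6v1h were divided between 2 coding transcripts (41.9% and 39.8%, and 44.6% and 32.0%), whose shares in single libraries varied with SDs of 36.9 to 45.3 percentage points, so no change of transcript could be read there.

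Within each sex and genotype, Atp6v0c was higher in every phagocytosis library than in either control library, although 0 of the 9 genes passed the edgeR threshold in any of the 4 comparisons of 4 against 2 libraries. Of all tested genes, 0.459% were called in female NL4-/-, 0.581% in female WT, 0.602% in male NL4-/- and 0.326% in male WT mice. In female NL4-/- mice it had 898.5, 915, 779.5 and 654 CPM in phagocytosis libraries, against 492 and 571 CPM in control libraries (log2 fold change 0.61 ± 0.230, SE; edgeR adjusted p = 0.344). In female WT mice it had 767, 1394, 957 and 933 CPM in phagocytosis libraries, against 672 and 604 CPM in control libraries (0.66 ± 0.229; edgeR adjusted p = 0.187). In male NL4-/- mice it had 949, 704, 749 and 988 CPM in phagocytosis libraries, against 512 and 504 CPM in control libraries (0.74 ± 0.233; edgeR adjusted p = 0.180). In male WT mice it had 726, 828.9, 1052 and 740 CPM in phagocytosis libraries, against 585 and 609 CPM in control libraries (0.49 ± 0.228; edgeR adjusted p = 0.578). DESeq2 called Atp6v0c, and no other of the 9 genes, in female WT (adjusted p = 0.0496) and male NL4-/- mice (adjusted p = 0.0489). The shares of all tested genes above are those of edgeR, and the share that DESeq2 called is not given here.

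At an unadjusted p under 0.05 (edgeR) the pump genes numbered 2 of 9 in female NL4-/- (9.54% of all tested genes), 1 in female WT (12.1%), 2 in male NL4-/- (10.8%) and 4 in male WT mice (8.21%); the 1 of 9 in female WT mice was at the background. Every phagocytosis library was above both control libraries for 4 of the 9 genes in female NL4-/- (12.1% of all tested genes), 2 in female WT (11.5%), 2 in male NL4-/- (11.4%) and 4 in male WT mice (9.07%). Atp6v1a did not overlap between the states in female mice of either genotype, and its estimates were 0.87 ± 0.301 in female NL4-/-, 0.52 ± 0.287 in female WT, 0.46 ± 0.309 in male NL4-/- and 0.36 ± 0.287 in male WT mice (log2 fold change ± SE). Atp6v1b2 did not overlap in female NL4-/-, male NL4-/- and male WT mice, with estimates of 0.41 ± 0.209, 0.59 ± 0.214 and 0.56 ± 0.209, and was at 0.14 ± 0.203 in female WT mice. Atp6v0e did not overlap in male WT mice (0.55 ± 0.224) and overlapped in the other groups (0.22 to 0.30). Whether the state difference itself varied was tested with interaction terms, of genotype by state and of sex by state. In each, 0 of the 9 genes and 0% of all genes were called by edgeR, 0 of the 9 had an unadjusted p under 0.05 (2.82% of all genes for genotype by state and 1.95% for sex by state), and DESeq2 called 0 of the 9. For Atp6v0c the state difference was larger in NL4-/- than in WT by 0.10 ± 0.224 and differed between males and females by -0.02 ± 0.224 (log2 ± SE), with 95% intervals (normal, from the SE) of -0.34 to 0.54 and -0.46 to 0.41.

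**Figure D4:**
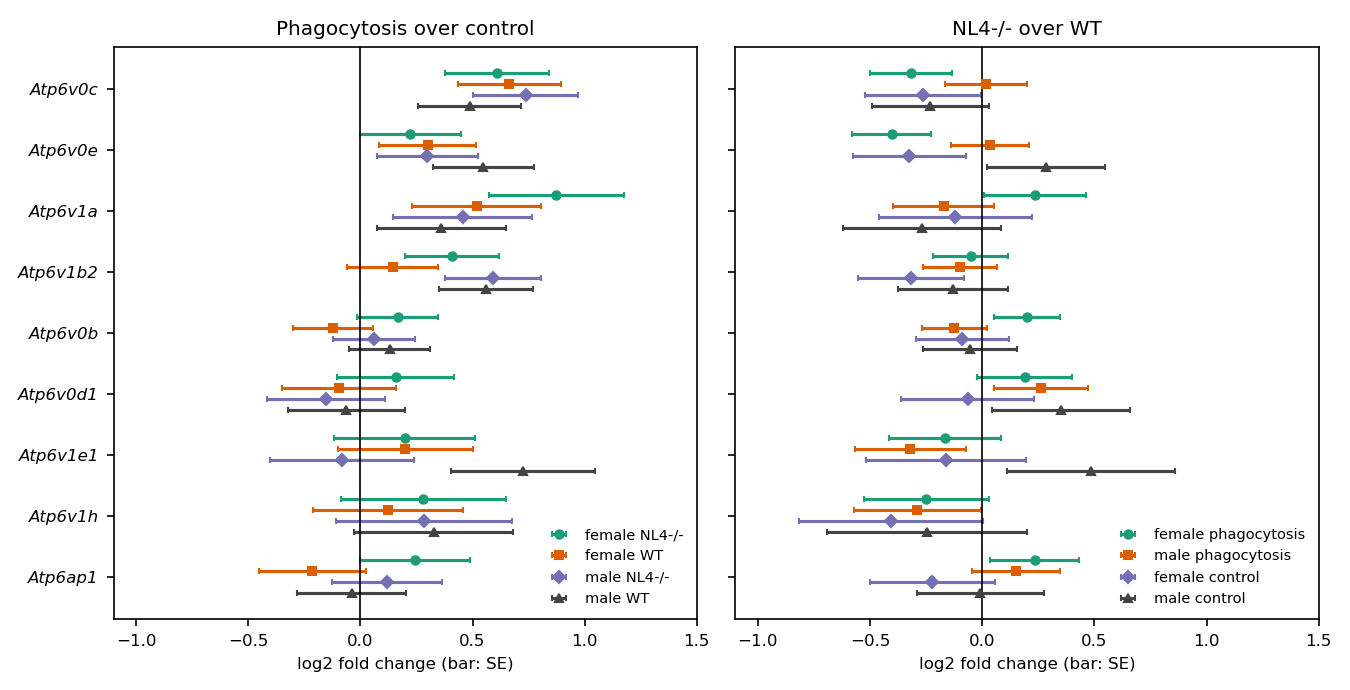
Log2 fold changes with SE bars of the 9 tested pump genes, for phagocytosis over control libraries within each sex and genotype (left) and for NL4-/- over WT libraries within each sex and state (right). Atp6v0c lies right of 0 in all 4 state comparisons, at 0.49 to 0.74, while estimates for NL4-/- over WT lie on both sides of 0 except in female control libraries, where all 9 are below 0.

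The second comparison asked whether loss of neuroligin-4 went with a difference in the pump. As the mean over sexes and states, 0 of the 9 genes were called by edgeR, against 0% of all tested genes; 0 of the 9 had an unadjusted p under 0.05, against 4.47% of all genes, and DESeq2 called 0 of the 9. Atp6v0c had 492, 727 and 988 CPM as lowest, median and highest in the 12 NL4-/- libraries, against 585, 753 and 1394 CPM in the 12 WT libraries. The groups overlapped widely, and the log2 fold change was -0.20 ± 0.112 (SE; edgeR unadjusted p = 0.0874). Atp6v1h had the lowest estimate, -0.30 ± 0.181, with 24.6, 38.2 and 47.6 CPM in NL4-/- libraries, against 19.2, 45.3 and 64.1 CPM in WT libraries. Atp6v0d1 had the highest, 0.18 ± 0.130, with 65.6, 94.6 and 115 CPM in NL4-/- libraries, against 64.9, 75.7 and 100 CPM in WT libraries. Among the other tested subunits Atp6v1d had the smallest p, at -0.56 ± 0.191 (SE, edgeR unadjusted p = 0.00647, adjusted p = 0.895). Its estimates were -0.26 in female control, -0.75 in male control, -0.57 in female phagocytosis and -0.65 in male phagocytosis libraries. The female phagocytosis estimate leaned on WT library 2, at 140.992 CPM, with the other WT libraries at 41.9 to 52.1 CPM. In that group 1 NL4-/- library was below every WT library. The libraries of Atp6v1d did not overlap between genotypes in female control (35.7% of all tested genes), male control (33.7%) and male phagocytosis libraries (2.5%).

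Within each sex and state the edgeR test called 0 of the 9 genes for genotype, with 0% of all genes called in each of the 4 comparisons and DESeq2 also calling 0 of the 9. At an unadjusted p under 0.05, 1 of the 9 was found in female phagocytosis libraries, beside 5.2% of all tested genes, and 0 in the other 3 comparisons, beside 4.74% in male phagocytosis, 2.12% in female control and 3.36% in male control libraries. In female control libraries the 9 estimates for NL4-/- over WT were all negative, from -0.41 to -0.07 with a median of -0.22 and SEs of 0.206 to 0.409, and the 9 genes share those 4 libraries. The 2 NL4-/- libraries did not overlap the 2 WT libraries for 5 of the 9 genes in female controls (35.7% of all tested genes) and 4 in male controls (33.7%). The gene with an unadjusted p under 0.05 in female phagocytosis libraries was Atp6v0e, with 160, 152, 133 and 129 CPM in female NL4-/- phagocytosis libraries, against 167, 204, 214 and 175 CPM in female WT phagocytosis libraries. The libraries did not overlap, as for 3.29% of all tested genes, and the log2 fold change was -0.40 ± 0.176 (SE; edgeR adjusted p = 0.946). In male phagocytosis libraries the same gene overlapped between genotypes (0.03 ± 0.175), 0 of the 9 genes separated fully, beside 2.5% of all tested genes, and the test of the difference between males and females gave 0.44 ± 0.248 (SE; edgeR adjusted p = 0.993). That test, of sex by genotype in phagocytosis libraries, called 0 of the 9 genes and 0% of all genes with edgeR, 0 of the 9 at an unadjusted p under 0.05 (4.76% of all genes), and 0 of the 9 with DESeq2.

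Between the sexes, as the mean over genotypes and states, edgeR called 0 of the 9 genes, against 0.0612% of all tested genes; 0 of the 9 had an unadjusted p under 0.05, against 4.4% of all genes, and DESeq2 called 0 of the 9. Log2 fold changes of male over female libraries ran from -0.13 to 0.11. Atp6v0c had 504, 733 and 1052 CPM as lowest, median and highest in the 12 male libraries, against 492, 773 and 1394 CPM in the 12 female libraries.

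Genes that work with the pump were read in the mean state comparison, where 8.39% of tested genes were higher and 5.2% lower (edgeR). Of the genes for pump assembly and regulation, 10 of 14 were tested, 0 were higher and 1 was lower: Rogdi, a partner of the complex that puts the sectors together, at -0.65 ± 0.162 (log2 fold change ± SE; adjusted p = 0.00799). Of 10 lysosomal ion channels and transporters, all tested, 1 was higher and 0 were lower: Clcn7, the chloride-proton exchanger that works beside the pump in lysosomes, at 0.38 ± 0.114 (adjusted p = 0.0246). Of the Ragulator, Rag and folliculin genes, through which the lysosome signals to mTOR, 13 of 15 were tested, 1 was higher and 0 were lower: Fnip2, a folliculin partner, at 1.23 ± 0.279 (adjusted p = 0.00323). Of the MiT/TFE transcription factor genes 3 of 4 were tested and 0 were called (edgeR), with 1 at an unadjusted p under 0.05, where 27% of all tested genes were. Tfe3 was at -0.28 ± 0.129 (edgeR adjusted p = 0.155) and Mitf at -0.15 ± 0.221 (edgeR adjusted p = 0.709). The median log2 fold change was -0.01 over the assembly genes, -0.16 over the channels and transporters, 0.05 over the Ragulator, Rag and folliculin genes and -0.15 over the MiT/TFE genes, beside -0.01 over all tested genes.

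Over the 24 libraries the genes outside the pump whose log2 CPM followed Atp6v0c most closely were Hax1 (Pearson r = 0.919), Eef1a1 (0.912), Cfl1 (0.906), Slc48a1 (0.902) and Phb (0.901). These values are a description over libraries that share the difference between the states. Slc48a1, a haem transporter of endosomes and lysosomes, had 96.3, 124 and 215 CPM as lowest, median and highest in phagocytosis libraries, against 38.4, 52.3 and 69.6 CPM in control libraries, without overlap. Cfl1, the actin-severing cofilin, had 1008, 1477 and 2216 CPM in phagocytosis libraries, against 739, 834 and 1002 CPM in control libraries, also without overlap. Hax1, Eef1a1 and Phb overlapped, with lowest phagocytosis libraries at 56.9, 4025 and 122 CPM and highest control libraries at 73.7, 4040 and 125 CPM. The share of all tested genes without overlap between the states was not counted.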

How the data were processed

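For each of 116945 transcripts the deposited files hold, per the file headers, an expected count of reads and a TPM value, columns that salmon and similar quantifiers write; no tool, version, index or read filter is named in the labels or headers. The authors' expected counts are not normalised, and the authors' TPM are scaled to a fixed sum per library. Of the transcripts, 116023 matched GENCODE vM21 (GRCm38) and 922 did not. Expected counts were summed per gene and rounded. All 24 libraries entered 1 fit of 8 group means (edgeR 4.0.16 in R 4.3.3, TMM, edgeR's expression filter at a minimum count of 10, robust quasi-likelihood F test, two-sided), with 14 comparisons, Benjamini-Hochberg adjustment over 9803 genes and a threshold of 0.05. CPM are TMM-normalised except for marker sums. Log2 fold changes carry a prior count of 0.125, and SEs are worked back from the F statistic. Alternatives were DESeq2 1.42.0, other scalings, no filter, length-scaled counts, a replicate block and left-out libraries; the fits were tested on simulated data. All pump genes named, every tested other subunit, and from each of the 4 lists of genes that work with the pump those called, or the pair with the smallest p, were named by rule; marker lists are given as sums and counts. The genes and lists were chosen with earlier results of these data known. The design text states 5 phagocytosis replicates per group; the fifth is not analysed here. Reads without molecular identifiers are not independent molecules.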

Additional observations from a re-analysis of the deposited data

Results flagged for a closer look

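Each of 76 groups of 4 phagocytosis libraries, 1 for each tested subunit and group, was checked for an outlying library. In 5 of them the gap to the nearest other library, divided by the range of the 4, exceeded Dixon's critical value for 4 samples. Chance gives about 1 in 20. Female WT phagocytosis library 2 stood above the other 3 for Atp6v1c1 (270.794 CPM, others 138 to 154), Atp6v1d (140.992 CPM, others 41.9 to 52.1) and Atp6v1f (219.321 CPM, others 186 to 189), and it was also the highest of all libraries for Atp6v0c at 1394 CPM. That library had 11582 genes with a read, the fewest of all libraries, at a total of 448652 reads. The next fewest was 13131, in male WT control library 1. Without female WT phagocytosis library 2 Atp6v0c kept its call at a log2 fold change of 0.58. For Atp6v0a1, male WT phagocytosis library 1 was at 112.455 CPM, below the others at 152 to 156. For Rnasek, female NL4-/- phagocytosis library 4 was at 157.67 CPM, above the others at 147 to 148.

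In 2 subunits the libraries of NL4-/- and WT mice separated in opposite directions in different groups, and the difference itself was not tested between those groups. Full separation of NL4-/- from WT libraries was found for 33.7% of all tested genes in male control libraries (2 against 2), 3.29% in female phagocytosis and 2.5% in male phagocytosis libraries (4 against 4 each). Atp6v0e was higher in both NL4-/- than in both WT male control libraries (log2 fold change 0.283907) and lower in all 4 NL4-/- than in all 4 WT female phagocytosis libraries (-0.402623). Atp6v0a1 was higher in all 4 NL4-/- than in all 4 WT male phagocytosis libraries (0.423857; 170, 173, 198 and 231 CPM in NL4-/-, against 112, 152, 155 and 156 CPM in WT) and lower in both NL4-/- than in both WT male control libraries (-0.304314; 177 and 151 CPM in NL4-/-, against 196 and 209 CPM in WT). None of the 4 passed the edgeR threshold, with adjusted p of 0.946 to 1.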

How the results depend on the processing

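Atp6v0c kept its direction and its call in the mean state comparison under every alternative run. Of the 9 pump genes, 4 were called with DESeq2, RLE size factors or library totals, 3 with no filter, length-scaled counts, the replicate block or phagocytosis libraries 1 and 2, 3 to 4 with a library left out, 2 with phagocytosis libraries 3 and 4, and 1 without the 3 satellite-rich controls. All genes called numbered 782 with libraries 3 and 4, 410 without those controls and 779 to 1507 with a library left out (779 without female WT control 2). Over all genes, RLE size factors gave 854 higher and 482 lower, and library totals 981 higher and 348 lower. For DESeq2, no filter, length-scaled counts and libraries 1 and 2 the number over all genes is not given here, so those counts lack a background. Other subunits called higher were 1 with DESeq2, 1 with library totals, 2 with libraries 1 and 2 and 0 to 1 with a library left out; called lower, 0 with libraries 3 and 4, 0 without the 3 controls and 0 to 1 with a library left out. DESeq2 called 1 pump gene in female WT and 1 in male NL4-/- mice, without a share of all genes to set beside them.

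Atp6v0e was no longer called with no filter (0.35), with the replicate block (0.33, adjusted p = 0.0779), with libraries 3 and 4 (0.36), with libraries 1 and 2 (0.37), without the 3 controls (0.38) or with 7 libraries left out in turn (range 0.30 to 0.43). Atp6v1a was not called with libraries 3 and 4 (0.40) or without the 3 controls (0.62), nor Atp6v1b2 with length-scaled counts (0.30) or without the 3 controls (0.42). Uncalled values near 0 changed sign: Atp6v0b to -0.0027 (length-scaled) and -0.0050 (without the 3 controls); Atp6v0d1 to 0.021 (library totals), 0.017 (libraries 1 and 2) and -0.074 to 0.041 over left-out libraries; Atp6ap1 to -0.13 (replicate block), -0.090 (libraries 1 and 2), -0.051 (without the 3 controls) and -0.0041 to 0.10; Tcirg1 to -0.13 (length-scaled), -0.028 (block), -0.079 (without the 3 controls) and -0.019 to 0.086; Atp6ap2 to -0.0042 (block), -0.085 (without the 3 controls) and -0.031 to 0.085; Rnasek to 0.031 (library totals), 0.0058 (libraries 1 and 2) and -0.078 to 0.10. The cause was not tested.

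Whether the labels' numbers pair the libraries was looked at within each state only, so pairing of phagocytosis with control libraries was not tested. Same-numbered phagocytosis libraries of different groups had a median correlation of deviations of 0.0151, with 3 of 24 pairs over 0.1. Differently numbered ones had -0.00415, with 6 of 72 over 0.1. Same-numbered control libraries had -0.063, with 0 of 12 over 0.1. In groups of 2 the deviations mirror each other, so the differently numbered control pairs (0.063) differ only in sign and cannot decide it. With the replicate block 1645 genes were called, against 1332. Depth limits Atp6v0d2 and the low isoforms.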
